A study of Saccharomyces cerevisiae with 21 samples.

Results

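The genes described here build yeast peroxisomes or carry out the beta-oxidation of fatty acids. They are the 41 genes named in a list of peroxisomal functions, of 5656 genes that the arrays measured under a single gene name. Of these, 15 code for beta-oxidation enzymes and for proteins that supply them with substrates and cofactors (here the enzyme class), and 26 for peroxins (PEX genes, 24 of them) and for the peroxisome inheritance factors INP1 and INP2 (here the PEX class). A gene stands here for its brightest probe set, the one with the highest mean signal over all arrays. That choice mattered for POX1 alone, which has 4 probe sets, since each of the other 40 genes has 1.

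Cells of Saccharomyces cerevisiae BY4743, a diploid laboratory strain of S288C background that lacks URA3, LEU2 and HIS3, were followed through drying and rehydration on 21 arrays, 3 for each of 7 time points. Every culture grew at 30 °C in YPD, which is rich in glucose, reached an A600 of 0.8 and was moved to YPD diluted 1:20. Control cells were taken at that point. The 18 h samples were taken after 18 h of drying at 22 to 25 °C in 9 cm dishes, and are titled 50% dry. The dry samples had dried for 42 h and were then held for 72 h at 20% relative humidity. Rehydrated cells were returned to the same diluted medium, 4 plates were pooled, and samples were taken at 15, 45, 90 and 360 min. The groups from 18 h on therefore differ from control in the time spent in diluted medium as well as in the drying, and no culture kept wet in diluted medium is among the samples used here. The labels do not say whether the 3 samples of a time point came from separate cultures, so that the p-values reflect how far these samples differ from one another, and that spread can be technical.

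Yeast breaks fatty acids down in peroxisomes. An acyl-CoA ester is brought in or made inside, oxidized by Pox1, hydrated and dehydrogenated by Fox2 and cleaved by the thiolase Pot1. The enzymes are folded in the cytosol and imported by the receptors Pex5 and Pex7, which dock at the membrane, deliver their cargo and are pulled back out. Growth in glucose holds these genes low, and growth on fatty acids raises many of them through the transcription factors Oaf1, Pip2 and Adr1.

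Signals are the deposited linear values, which were already scaled to a like mean on every array (2% trimmed means of 500.2 to 500.6), so a change is relative to the other transcripts of its array. Between 78.6 and 81.4% of probe sets on an array were above a background signal of 29.6. In bulk samples, fewer cells with a transcript and less transcript per cell cannot be told apart. Scaling to the hybridization spike-ins instead lowered the median of all probe sets by up to 2.32 (log2, 360 min against control), and directions that this or another scaling turned are given beside the results or with the effects of the processing. The log2 ratio of the 3′ to the 5′ probe set of ACT1, a measure of RNA and label length, averaged -0.31 in control, 0.61 at 18 h, 1.05 in dry cells, 1.72 at 15 min, 1.89 at 45 min, 2.43 at 90 min and 2.32 at 360 min. That of SRB4 averaged 0.82 in control, 1.79 at 18 h, 1.72 in dry cells and 2.13 at 360 min, and that of SPT15 averaged 1.66 in control, 1.80 at 18 h, 1.27 in dry cells and 2.78 at 360 min. All 3 ratios were higher at 360 min than in control, but only that of ACT1 was higher in dry cells than at 18 h, and their part in the results was not tested. The array days overlap only partly with the time points (all control arrays and 18 h replicate 2 on the first day, 90 and 360 min on the last 2 days). The HIS3 probe set gave 912 to 998 in control although the strain lacks HIS3, and the sources used here do not give whether it lies in the deleted part. URA3 stayed between 0.6 and 6.9 on all 21 arrays. It was the only 1 of the 3 deleted genes with all control arrays at or under background. LEU2 was therefore not at background on every control array, and the reason was not tested. Summed signals of 10 sporulation genes were 3195.7 to 3427.5 at 18 h, mostly from IME1 (3009, 2898 and 3056), against 322.0 to 367.2 in control, and lay between 334.0 and 1007.5 on the other arrays. Those of 12 haploid and mating genes were 892.5 to 930.5 at 18 h, against 738.0 to 813.5 in control. They were highest in dry cells, at 1060.2 to 1248.8, and lay between 618.2 and 952.0 on the rehydrated arrays. The part of either list in the results was not tested.

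Both classes were higher at 18 h of drying than in control, the enzymes by more. By limma's moderated test with Benjamini-Hochberg adjustment over all 9275 probe sets (called at an adjusted p under 0.05), 35 of 41 genes were higher at 18 h and 3 lower, where 36.2% of all probe sets were called higher and 27.3% lower. Among the enzymes 13 of 15 were higher and 2 lower, with a median log2 change of 4.88 (4.73 with the floor at background, which sets DCI1 to its bound). Among the PEX class 22 of 26 were higher and 1 lower, with a median of 1.63, and the median of all probe sets was 0.11. Of the 41 genes, 21 lay among the top 10% of all probe sets by log2 change, 12 of them enzymes and 9 of the PEX class.

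**Figure D1:**
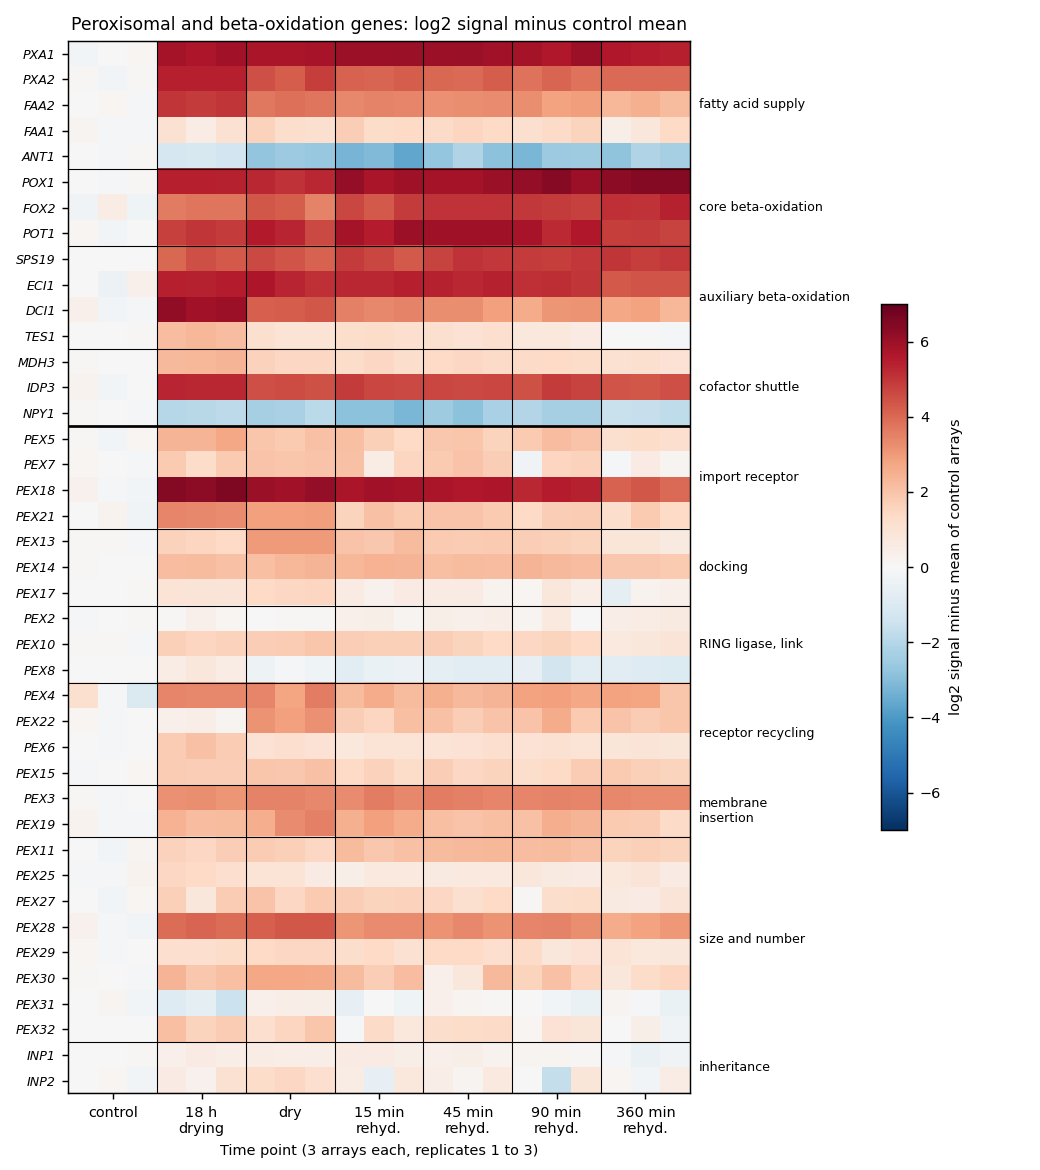
Colour gives the log2 signal on each array minus the mean of the 3 control arrays, for the 41 genes (rows, grouped by role, enzyme class above the thick line and PEX class below) on the 21 arrays (columns, 3 per time point). Most rows are red from 18 h on, deepest at 18 h for PEX18 and DCI1, whose depth rests on control values under background, while ANT1 and NPY1 are blue throughout and PEX31 is blue at 18 h. The values are those of the deposited scaling, and with spike-in scaling the PEX class median at 360 min against control was -1.48.

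The step from 18 h to dry cells gave other counts in each class, and the difference between the classes was not tested. In dry cells against 18 h, 6 of 41 genes were higher and 13 lower, where 22.1% of all probe sets were called higher and 17.1% lower. All 6 that rose were in the PEX class, which had 6 lower as well and a median log2 change of 0.22 (0.048 with median centring). These 6 and 6 of 26 are near the shares of all probe sets. Of the enzymes 0 passed limma's test upward, 7 fell, and the enzyme median was -0.24. At an unadjusted p under 0.05, 0 enzymes were higher and 7 lower, where 46.1% of all probe sets passed in either direction. Mean signal was highest in dry cells for 13 of 26 genes of the PEX class and for 0 of 15 enzymes. It was highest at 18 h for 7 enzymes and 8 genes of the PEX class. The shares of all probe sets that were highest at these time points were not computed.

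At 15 min of rehydration against dry, 5 of 41 genes were higher and 14 lower, where 12.8% of all probe sets were called higher and 27.6% lower. The 5 that rose were POX1 (by its brightest probe set), FOX2, POT1, TES1 and PEX11. None of the 5 was higher with spike-in scaling, where all 5 values were below 0. The PEX class had 1 higher and 8 lower (median -0.41). The enzyme class had 4 higher and 6 lower, and its median of 0.15 turned to -0.21 with quantile normalization and -0.58 with spike-in scaling. Leaving out 1 array left 2 to 5 genes called higher.

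From 15 to 90 min little passed the test. At 45 min against 15 min, limma called 0 of 41 genes in either direction, where 0.27% of all probe sets were called higher and 0.151% lower. At an unadjusted p under 0.05, 4 genes were higher and 4 lower, where 13.8% of all probe sets passed in either direction. At 90 min against 45 min limma called TES1 alone, which was lower, where 2.19% of all probe sets were called higher and 3.32% lower. The arrays of the 45 and 15 min groups did not overlap for 4 genes higher and 7 lower at 45 min, against 9.68% and 8.45% of all probe sets. Those of the 90 and 45 min groups did not overlap for 1 gene higher and 11 lower at 90 min, against 9.57% and 13.9% of all probe sets.

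At 360 min, 13 of the 26 genes of the PEX class and 5 of the 15 enzymes were called both lower than in dry cells and higher than in control. The share of all probe sets with both calls was not computed. These counts are those of the deposited scaling, and with spike-in scaling the PEX median against control was -1.48. Against 90 min, 1 gene (NPY1) was higher and 15 lower, where 15.4% of all probe sets were called higher and 22% lower. Against dry, 5 of 41 genes were higher and 26 lower, where 21.2% of all probe sets were called higher and 40.7% lower. Of the PEX class 1 was higher and 20 lower against dry (median -0.90), and of the enzymes 4 were higher and 6 lower. The 4 enzymes include POX1, which was higher by its brightest probe set alone. The enzyme median against dry was -0.36, and it turned to 0.16 with median centring. With spike-in scaling all 41 genes were lower at 360 min than in dry cells.

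Against control, 31 of 41 genes were higher at 360 min and 4 lower, where 33.7% of all probe sets were called higher and 36.4% lower. The enzyme class had 12 higher and 2 lower (median 3.96), and the PEX class 19 higher and 2 lower (median 0.84, -1.48 with spike-in scaling). Comparisons that follow one another share a group, so that a group read low or high moves both. The moderated F test over the 7 time points called 40 of the 41 genes, where 84.2% of all probe sets were called, and INP2 was the exception (adjusted p = 0.0986).

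**Figure D2:**
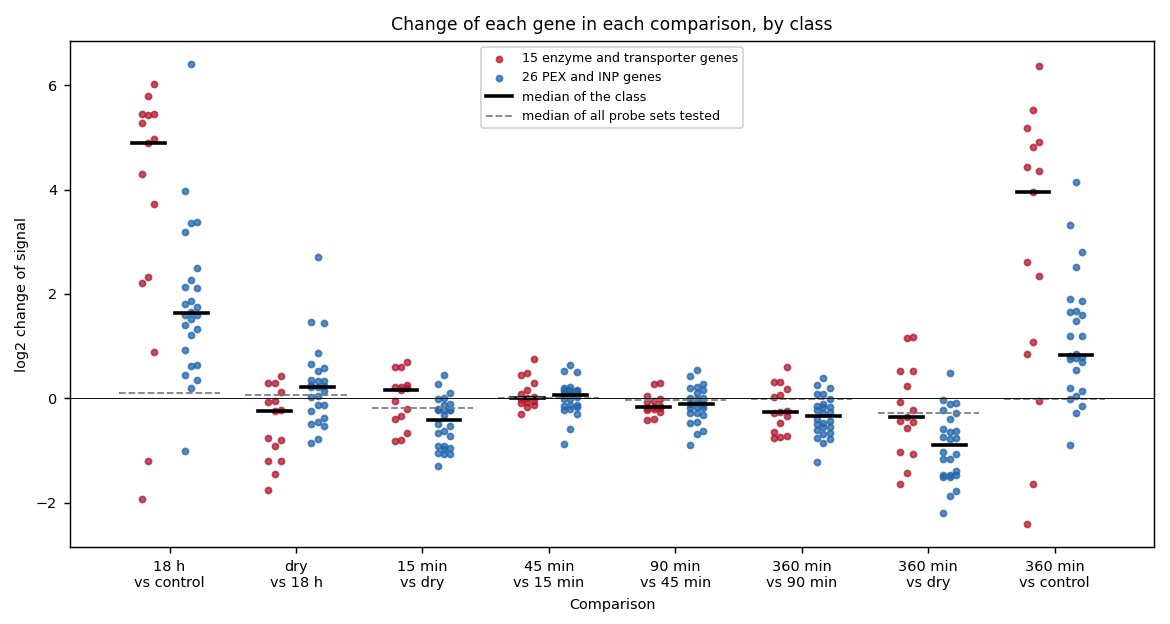
Each point is the log2 change of 1 gene in 1 of 8 comparisons (the later time point over the earlier), red for the 15 enzyme class genes and blue for the 26 of the PEX class, with black bars for class medians and dashed grey lines for the median of all probe sets. The enzyme median is 4.88 and the PEX median 1.63 at 18 h against control. At 360 min against dry the medians are -0.36 and -0.90, of which the enzyme median turned to 0.16 with median centring, the enzyme median at 15 min against dry (0.15) turned below 0 with quantile normalization and spike-in scaling, and the PEX median at 360 min against control turned below 0 with spike-in scaling.

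The 3 core enzymes rose at 18 h and stayed far above control. Signals of POX1, the acyl-CoA oxidase that takes the first step and releases hydrogen peroxide, were 2685, 2649.5 and 2585 at 18 h, against 61.6, 57.6 and 63.9 in control, a log2 change of 5.44 ± 0.12, adjusted p = 1.69e-15. They were 2409.7, 2066 and 2334 in dry cells, then 4299.6, 3150.4 and 3700.3 at 15 min, 3504, 3514 and 4071 at 45 min, 4419, 5126 and 3887 at 90 min and 4639.9, 5194 and 5319.7 at 360 min. No dry array reached an 18 h array, and every rehydrated array was above every dry array. The log2 change was 0.70 ± 0.12, adjusted p = 0.000243 at 15 min against dry and 1.15 ± 0.12, adjusted p = 3.84e-07 at 360 min against dry.

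The other 3 probe sets of POX1 gave another course after 18 h. Probe set 2260_g_at fell to 165, 230.1 and 181 at 360 min, against 1365, 1140.2 and 1367 in dry cells (-2.76 ± 0.29, adjusted p = 3.97e-07). Probe set 2261_s_at gave a log2 change of -1.21 ± 0.18, adjusted p = 1.73e-05 in that comparison, and 5220_at gave -0.82 ± 0.10, adjusted p = 1.43e-06. All 4 probe sets were higher at 18 h than in control, 2259_at by 43.3-fold, 2261_s_at by 63.8-fold, 5220_at by 135-fold and 2260_g_at by at least 75.9-fold from a control at background. At 360 min the higher signal of POX1 than in dry cells is therefore that of its brightest probe set (2259_at) alone. At 15 min against dry, 5220_at was higher as well with no overlap but was not called (0.15 (adjusted p = 0.222)). Mean signals of 2260_g_at (772 against 1291) and 2261_s_at (1785 against 2000) were lower at 15 min than in dry cells. The sources used here do not give where on the transcript each probe set lies, and the rise of the ACT1 3′ to 5′ ratio over the same arrays was not tested as a part of it.

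**Figure D3:**
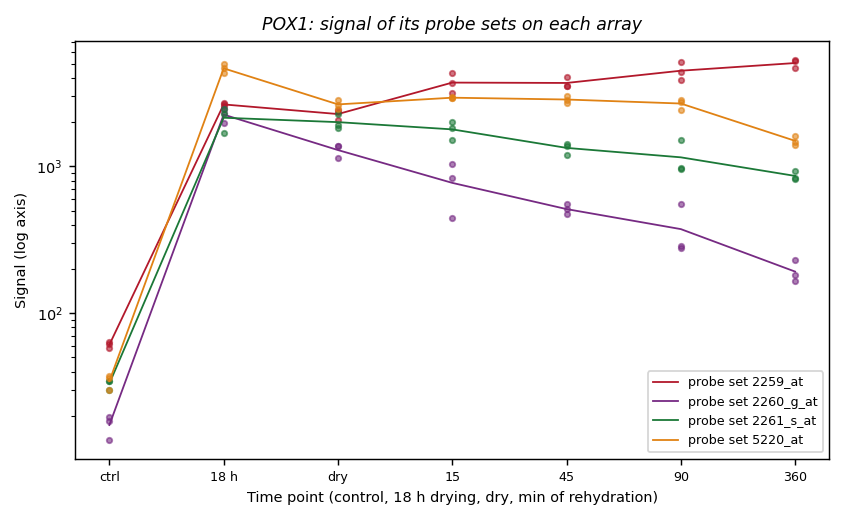
Signal (log axis) of the 4 probe sets of POX1 on each of 21 arrays (points), with lines through the means of 3 arrays, over the 7 time points. All 4 are higher at 18 h than in control. At 360 min against dry, 2259_at is higher by 1.15 (log2) and 2260_g_at lower (-2.76), and with spike-in scaling 2259_at is lower too (-0.85).

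FOX2, which hydrates and then dehydrogenates the acyl chain, gave 3181, 3363 and 3439.9 at 18 h, against 216, 358 and 209 in control (3.72 ± 0.22, adjusted p = 3.11e-10). In dry cells FOX2 read 5170.4, 4685 and 2801, and at 15, 45, 90 and 360 min its 3 arrays ranged over 4933 to 7465, 8553 to 8567, 7044 to 7721 and 8503 to 10576. Replicate 3 of the dry samples was the lowest of its group, and the 15 min arrays overlapped the dry ones. The higher value at 15 min against dry (0.59 ± 0.22, adjusted p = 0.043) did not pass the test without dry replicate 3 (0.32), without 15 min replicate 1 (0.57) or 3 (0.46), or with scan day as a block. At 360 min against dry the arrays did not overlap (1.17 ± 0.22, adjusted p = 0.000232), and the change was 0.21 and not called with quantile normalization and -0.83 with spike-in scaling.

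POT1, the thiolase that closes each round, gave 4110.4, 4883 and 4449 at 18 h, against 167, 133 and 156 in control (4.88 ± 0.20, adjusted p = 2.34e-12). Dry cells gave 7201, 6049.6 and 3735, with replicate 3 again lowest. The 15, 45, 90 and 360 min arrays ranged over 6960.1 to 9758, 9200.0 to 9413, 5759.5 to 8238 and 3961 to 4424. POT1 was lower at 360 min than at 90 min with no overlap (-0.73 ± 0.20, adjusted p = 0.0081). In that comparison FOX2 gave 0.31 (adjusted p = 0.302) and the brightest probe set of POX1 gave 0.18 (adjusted p = 0.256). Both values were below 0 with spike-in scaling (-0.65 and -0.78). The other probe sets of POX1 had lower mean signals at 360 min than at 90 min. Those means were 1491 against 2677 (5220_at), 192 against 374 (2260_g_at) and 861 against 1152 (2261_s_at). The contrast of POT1 with POX1 is therefore that of the brightest POX1 probe set alone. The call of POT1 as higher at 15 min against dry (0.61 ± 0.20, adjusted p = 0.0218) was lost without dry replicate 3 (0.33) and without 15 min replicate 1 (0.59) or 3 (0.49). Without dry replicate 3, POT1 was lower at 360 min than in dry cells (-0.63), a difference that was not called with all arrays (-0.36 (adjusted p = 0.127)).

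**Figure D4:**
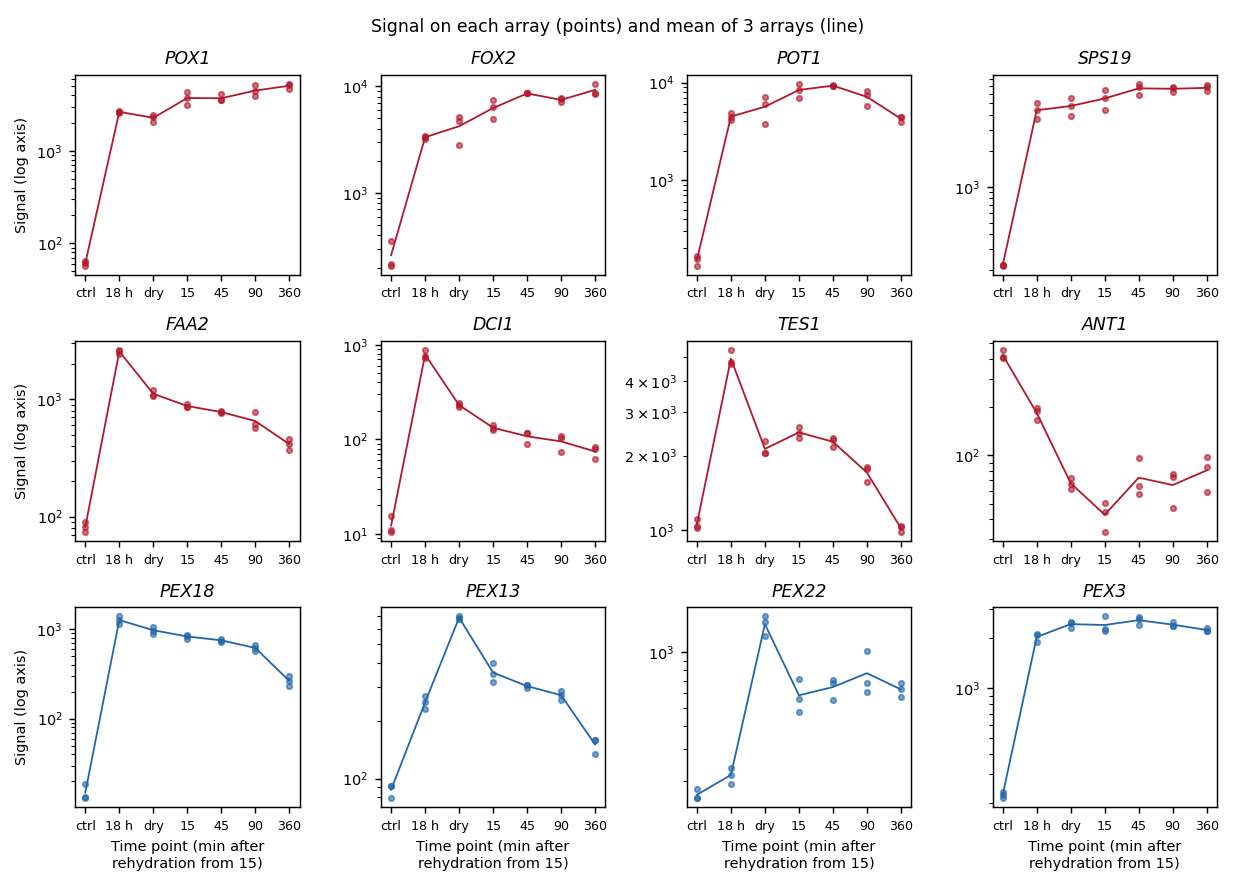
Signal (log axis, scaled for each gene) of 12 genes on each array (points) with lines through the means of 3 arrays, at control, 18 h, dry, and 15, 45, 90 and 360 min of rehydration, red for the enzyme class and blue for the PEX class. FAA2, DCI1 and PEX18 peak at 18 h, PEX13 and PEX22 in dry cells, and ANT1 is below control throughout. FOX2 and SPS19 end above their dry level, which turned below it for both with spike-in scaling and for SPS19 with quantile normalization.

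Genes that handle unsaturated chains or free the acyl group rose with the core enzymes at 18 h and then differed from one another. SPS19, a dienoyl-CoA reductase, ranged over 3656 to 5014 at 18 h, against 219.9 to 222 in control (4.29 ± 0.15, adjusted p = 4.61e-13). It was higher at 360 min (7083, 6267 and 6787) than in dry cells (5540.1, 4745 and 3917), with no overlap (0.52 ± 0.15, adjusted p = 0.00731), and turned to -0.36 with quantile normalization and to -1.49 with spike-in scaling. ECI1, an enoyl-CoA isomerase, gave 5029, 4822 and 5256 at 18 h, against 118, 87.0 and 149.9 in control (5.45 ± 0.16, adjusted p = 4.31e-14). ECI1 had no called change in dry cells against 18 h (-0.07 (adjusted p = 0.769)) or at 15 min against dry (-0.05 (adjusted p = 0.849)), and fell at 360 min to 2227, 2432 and 2396, against 4059, 4159 and 3727 at 90 min (-0.76 ± 0.16, adjusted p = 0.00122).

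DCI1, a dienoyl-CoA isomerase related to ECI1, was at background in control (15.4, 10.5 and 10.9) and gave 880.0, 724 and 757 at 18 h, at least 26.5-fold higher (adjusted p = 4.48e-14). It fell in dry cells and again during rehydration. Dry cells gave 220.1, 229 and 242, against 724 to 880.0 at 18 h (-1.77 ± 0.17, adjusted p = 1.08e-06). At 360 min DCI1 gave 78.3, 83.5 and 61.5, against those dry values (-1.64 ± 0.17, adjusted p = 5.65e-07), and every 360 min array was below every dry array. The fall at 15 min against dry (-0.80) was not called with quantile normalization (-0.41).

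TES1, the peroxisomal acyl-CoA thioesterase, overlapped its control signal at 360 min in the deposited scaling. It gave 4759, 5330.0 and 4669 at 18 h, against 1024, 1039.7 and 1107 in control (2.22 ± 0.08, adjusted p = 5.98e-13), and 2283, 2052 and 2047 in dry cells (-1.21 ± 0.08, adjusted p = 1.44e-08 against 18 h). It gave 1767, 1791 and 1563 at 90 min, against 2319, 2158 and 2345 at 45 min (-0.42 ± 0.08, adjusted p = 0.00806), and 1039, 1032 and 983 at 360 min. The 360 min arrays overlapped control, with a log2 difference of -0.05 ± 0.08, adjusted p = 0.57. With quantile normalization TES1 was called higher than control (0.35). Spike-in scaling shifts every value of that comparison by -2.32 (log2). The call at 90 min was lost when the fit held those 2 groups alone.

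Of the genes that supply acyl-CoA, the subunits of its transporter changed most at 18 h. PXA1 gave 3179.6, 2811 and 3294 at 18 h, against 48.8, 57.0 and 61.2 in control (5.80 ± 0.11, adjusted p = 3.2e-16). It stayed between 2542 and 3550.5 (means) from dry to 360 min, and its difference from dry at 360 min was -0.22 (adjusted p = 0.0804), which was called as 0.30 with median centring and as -0.44 with quantile normalization. PXA2 gave 1580.4, 1569 and 1586 at 18 h, against 38.7, 31.8 and 37.8 in control (5.46 ± 0.13, adjusted p = 3.44e-15). PXA2 was lower in dry cells than at 18 h, at 830.1, 688 and 1012 (-0.92 ± 0.13, adjusted p = 2.8e-05), a step at which PXA1 gave -0.06 (adjusted p = 0.715).

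FAA2, the acyl-CoA synthetase of the peroxisome, gave 2626, 2454 and 2585 at 18 h, against 81.7, 89.6 and 74.1 in control (4.97 ± 0.11, adjusted p = 1.67e-15). It read 1073, 1189 and 1080.3 in dry cells and 413, 457 and 373 at 360 min, lower in dry cells than at 18 h (-1.20 ± 0.11, adjusted p = 4.09e-07) and lower at 360 min than in dry cells (-1.43 ± 0.11, adjusted p = 1.1e-08). No arrays overlapped in either comparison. FAA1, the main synthetase for long chains imported from the medium, gave 3151, 2206 and 3229.9 at 18 h, against 1724, 1397 and 1452 in control (0.89 ± 0.22, adjusted p = 0.00225). With scan day as a block, which sets 18 h replicate 2 against the control arrays of its day, FAA1 gave 0.54 and was not called.

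ANT1 and NPY1 went the other way from the rest of the enzyme class. ANT1 carries ATP into the peroxisome for the activation of fatty acids there. It gave 189, 197 and 165 at 18 h, against 408, 406 and 454 in control (-1.20 ± 0.23, adjusted p = 0.000219), and 61.7, 72.6 and 66.7 in dry cells (-1.46 ± 0.23, adjusted p = 9.91e-05 against 18 h). It was still below control at 360 min, at 59.2, 98.0 and 84.6 (-2.42 ± 0.23, adjusted p = 7.18e-08). NPY1, a peroxisomal NADH diphosphatase, gave 154, 158 and 173 at 18 h, against 648, 625 and 574 in control (-1.93 ± 0.15, adjusted p = 1.25e-08). Its lowest arrays were those at 15 min (84.8, 84.4 and 66.6). At 360 min NPY1 gave 209.7, 203 and 180.1, above dry cells at 120.5, 128 and 167 (0.53 ± 0.15, adjusted p = 0.00753, -1.48 with spike-in scaling) and below control (-1.64 ± 0.15, adjusted p = 6.94e-08).

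The other cofactor enzymes rose. MDH3, the malate dehydrogenase that regenerates NAD+ in the peroxisome, gave 6195, 6433 and 6676 at 18 h, against 1356, 1253 and 1261 in control (2.32 ± 0.07, adjusted p = 1.42e-13), and 3949, 3582 and 3542 in dry cells (-0.80 ± 0.07, adjusted p = 5.15e-07 against 18 h). IDP3, the isocitrate dehydrogenase that supplies NADPH to Sps19, gave 4280.2, 4071 and 4096 at 18 h, against 125, 94.4 and 103 in control (5.28 ± 0.12, adjusted p = 2.08e-15). IDP3 was lower in dry cells than at 18 h (-0.76 ± 0.12, adjusted p = 8.82e-05) and at 360 min differed from dry by -0.08 (adjusted p = 0.58; 0.44 and called with median centring).

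All 4 import receptors and helpers rose at 18 h, PEX7 by close to the class median and the others by more. PEX5, the receptor for the common C-terminal signal, gave 601, 598 and 764 at 18 h, against 121, 100.0 and 127 in control (2.50 ± 0.16, adjusted p = 1.03e-09). It read 440.4, 417 and 486 in dry cells, with 15, 45 and 90 min arrays over 308 to 498, 344 to 447 and 404 to 514, and 253, 279 and 264 at 360 min. PEX5 was lower at 360 min than in dry cells (-0.75 ± 0.16, adjusted p = 0.000795) and above control (1.20 ± 0.16, adjusted p = 5.68e-06, but -1.12 with spike-in scaling), and the fall was not called with quantile normalization (-0.26).

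PEX7, the receptor for the N-terminal signal that thiolase carries, gave 644, 441 and 646 at 18 h, against 201, 179.6 and 162 in control (1.66 ± 0.41, adjusted p = 0.00221). With scan day as a block that change was 1.29 and not called, and 18 h replicate 2 was the lowest of its group. Dry cells gave 729, 689 and 716. Rehydrated arrays were widely spread, with 749, 255 and 513 at 15 min, 638, 728 and 593 at 45 min and 154, 506 and 559 at 90 min. At 360 min PEX7 gave 164, 264 and 205, below every dry array (-1.78 ± 0.41, adjusted p = 0.00136) and overlapping control (0.20 (adjusted p = 0.688), -2.12 with spike-in scaling).

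PEX18, a co-receptor of PEX7, had the largest change at 18 h of the 26 PEX class genes. It was at background in control (18.5, 13.5 and 12.9) and gave 1275, 1126 and 1381 at 18 h, at least 42.5-fold higher (adjusted p = 1.06e-15). It read 959.5, 884 and 1065 in dry cells, 767, 864 and 846 at 15 min, 779, 724 and 743 at 45 min, 576, 657 and 613 at 90 min and 261, 302 and 229 at 360 min. The fall at 360 min against 90 min (-1.23 ± 0.13, adjusted p = 3.73e-06) and against dry (-1.88 ± 0.13, adjusted p = 5.38e-09) left no overlap. PEX21, the other co-receptor, gave 385, 373 and 362 at 18 h, against 37.2, 42.7 and 31.0 in control (3.35 ± 0.15, adjusted p = 1.25e-11). It gave 109, 151 and 129.6 at 15 min, against 267, 269 and 276 in dry cells (-1.07 ± 0.15, adjusted p = 5.78e-05), where PEX18 gave -0.23 (adjusted p = 0.194). The later arrays of PEX21 ranged over 132 to 148, 97.1 to 125 and 86.5 to 129.9 at 45, 90 and 360 min. The falls of PEX18, PEX21 and PEX5 in dry cells against 18 h were each lost when 1 of several arrays was left out.

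Of the docking proteins, PEX13 peaked in dry cells. It gave 268, 252 and 229 at 18 h, against 92.1, 91.9 and 79.0 in control (1.51 ± 0.10, adjusted p = 8.95e-10), and 679, 697 and 684 in dry cells (1.46 ± 0.10, adjusted p = 1.65e-08 against 18 h). It then gave 350.5, 318 and 399 at 15 min (-0.95 ± 0.10, adjusted p = 2.81e-06 against dry) and 159.8, 158 and 134 at 360 min (-2.19 ± 0.10, adjusted p = 4.61e-11 against dry). At each of these steps the arrays did not overlap. PEX14, the other main docking protein, gave 1315, 1364 and 1243 at 18 h, against 314, 290.5 and 289 in control (2.14 ± 0.08, adjusted p = 1.09e-12). PEX14 gave no called change in dry cells against 18 h (0.14 (adjusted p = 0.197)) or at 15 min against dry (0.10 (adjusted p = 0.382)). PEX17, their small partner, rose less at 18 h (0.93 ± 0.20, adjusted p = 0.000713), and its rise in dry cells (0.53) was lost without any 1 of the 6 arrays compared. It gave 84.3, 71.0 and 84.9 at 15 min, against 150.5, 155 and 163 in dry cells (-0.97 ± 0.20, adjusted p = 0.00123).

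The ligases that mark receptors for removal differed in their courses. PEX2, a RING ubiquitin ligase, had no called change at 18 h (0.19 (adjusted p = 0.215)), although its arrays (2575, 3067 and 2589.8) did not overlap control (2276, 2355 and 2546). PEX2 was called higher with scan day as a block (0.36). It was higher at 360 min, at 3356, 3469 and 3663, than in dry cells at 2369, 2572 and 2552 (0.48 ± 0.13, adjusted p = 0.00445), which was 0.20 and not called with quantile normalization and -1.52 with spike-in scaling. PEX10, another ligase, gave 422, 379 and 404 at 18 h, against 140.2, 139 and 119 in control (1.60 ± 0.10, adjusted p = 4.89e-10), and was lower at 360 min than in dry cells (-1.03 ± 0.10, adjusted p = 1.74e-07). PEX8, which links docking and ligase parts from inside, rose to 1497, 1760.1 and 1488 at 18 h, against 1049, 1012 and 1026 in control (0.62 ± 0.14, adjusted p = 0.00112). It was below control at 360 min, at 588, 547 and 532 (-0.89 ± 0.14, adjusted p = 2.93e-05).

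The machine that pulls receptors back held the gene with the largest rise of the 41 in dry cells against 18 h. PEX22, which anchors the ubiquitin-conjugating enzyme Pex4 to the membrane, gave 218, 238 and 195 at 18 h, against 183, 162 and 163 in control (0.35 (adjusted p = 0.104)). In dry cells it gave 1471, 1235 and 1567, 6.56-fold higher than at 18 h (2.71 ± 0.18, adjusted p = 1.66e-08), while for PEX4 itself the same step gave -0.12 (adjusted p = 0.847). PEX22 fell to 560.3, 477 and 719.8 at 15 min (-1.30 ± 0.18, adjusted p = 4.87e-05 against dry) and stayed above control at 360 min (679.6, 575 and 638, 1.90 ± 0.18, adjusted p = 8.79e-08, but -0.42 with spike-in scaling).

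PEX4 gave 209, 199.6 and 203 at 18 h, against 42.3, 18.1 and 9.70 in control, where 2 of 3 arrays were at background (3.39 ± 0.38, adjusted p = 6.9e-07). PEX6, an ATPase that extracts receptors, gave 1064, 1285 and 1077 at 18 h, against 322, 297 and 314 in control (1.87 ± 0.09, adjusted p = 2.66e-11), and was lower in dry cells at 634, 716 and 628 (-0.79 ± 0.09, adjusted p = 5.24e-06). PEX15, which holds Pex6 at the membrane, gave 690.0, 672 and 671 at 18 h, against 183, 203 and 224 in control (1.74 ± 0.13, adjusted p = 4.48e-09). PEX15 gave 0.22 (adjusted p = 0.204) in dry cells against 18 h.

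PEX3 and PEX19, which insert membrane proteins and on which peroxisome formation depends, both rose. PEX3 gave 2086, 2139.5 and 1904 at 18 h, against 236, 214 and 225 in control (3.18 ± 0.08, adjusted p = 1.15e-14). It read 2515, 2498 and 2322 in dry cells, 2236, 2719.9 and 2288 at 15 min, 2713, 2628 and 2411 at 45 min, 2386, 2509.7 and 2388 at 90 min and 2311, 2225 and 2221 at 360 min, with steps of at most 0.26 (log2) from 18 h on. PEX3 at 360 min differed from dry by -0.12 (adjusted p = 0.23), and was higher by 0.41 and called with median centring. PEX19, the shuttling receptor for membrane proteins, gave 536, 455 and 472 at 18 h, against 121, 90.2 and 93.5 in control (2.27 ± 0.22, adjusted p = 1.07e-07). Dry cells gave 594, 992 and 1176, with replicate 1 well below the other two. PEX19 was higher in dry cells than at 18 h (0.86 ± 0.22, adjusted p = 0.00464), and this was lost when the fit held those 2 groups alone. It read 555, 730.3 and 600.0 at 15 min and 426, 399 and 425 at 45 min, then 412, 593 and 519 at 90 min and 360.2, 346 and 256 at 360 min, lower than in dry cells (-1.48 ± 0.22, adjusted p = 1.88e-05).

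Of the genes that set peroxisome size and number, 7 of 8 rose at 18 h and PEX31 fell. PEX11, the main factor of peroxisome proliferation, gave 2990.4, 2696 and 3184 at 18 h, against 998, 846 and 1095 in control (1.60 ± 0.11, adjusted p = 2.16e-09), and 3283, 3132 and 2659 in dry cells. It gave 4591, 3637 and 4070.5 at 15 min (0.44 ± 0.11, adjusted p = 0.00531 against dry), 4513, 4677 and 4935 at 45 min, 4325, 4560.0 and 4075 at 90 min and 2924, 3045 and 2869 at 360 min. In the deposited scaling PEX11 was highest between 15 and 90 min. At 360 min it differed from dry by -0.03 (adjusted p = 0.822), and this was called in either direction under other scalings, 0.49 with median centring, -0.28 with quantile normalization and -2.04 with spike-in scaling. The rise at 15 min was not called with quantile normalization (0.16) or with those 2 groups alone, and was -0.29 with spike-in scaling.

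PEX25 and PEX27, relatives of PEX11, rose at 18 h by 1.33 and 1.41 (log2). For PEX27 the scan day block gave 0.78, not called, and its arrays at 18 h (192, 105 and 212) had replicate 2 lowest. PEX28 gave 574, 652 and 589.7 at 18 h, against 47.3, 36.7 and 33.3 in control (3.97 ± 0.14, adjusted p = 3.48e-13), and fell to 325, 389 and 379 at 15 min, against 692, 785 and 794 in dry cells (-1.06 ± 0.14, adjusted p = 2.15e-05). PEX29, which limits peroxisome number together with Pex28, rose at 18 h by 1.21.

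PEX30, PEX31 and PEX32 code for related membrane proteins that limit peroxisome size and number. PEX31 was lower at 18 h, at 61.2, 73.0 and 40.7, than in control at 118, 129.6 and 98.9 (-1.02 ± 0.21, adjusted p = 0.000471), while its relatives rose by 2.12 (PEX30) and 1.80 (PEX32). The fall of PEX31 was -0.66 and not called with scan day as a block. In dry cells PEX31 gave 149, 159.9 and 155, above 18 h (1.45 ± 0.21, adjusted p = 4.98e-05). PEX30 at 45 min gave 202, 273 and 746, with replicate 3 far above the other two, and without that array it was lower than at 15 min (-1.44) and higher at 90 min than at 45 min (1.10), both called. PEX32 gave 46.7, 61.9 and 38.7 at 360 min, against 105, 134 and 181 in dry cells (-1.50 ± 0.32, adjusted p = 0.000607), and overlapped control (0.05 (adjusted p = 0.913), -2.27 with spike-in scaling).

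The inheritance factors had smaller values of change. INP1, which holds peroxisomes in the mother cell, gave 211, 245 and 228 at 18 h, against 161, 166 and 174 in control (0.45 ± 0.09, adjusted p = 0.000371), and 151, 121 and 142 at 360 min, below control (-0.28 ± 0.09, adjusted p = 0.0109). That last call was lost with quantile normalization (-0.08) and without 360 min replicate 2 (-0.19). INP2, the receptor for the myosin that carries peroxisomes to the bud, stayed near background, with 53.8, 43.6 and 74.2 at 18 h, against 37.1, 38.7 and 31.9 in control (0.64 (adjusted p = 0.252)). It was lower at 360 min (39.1, 31.1 and 50.4) than in dry cells (87.3, 98.3 and 79.8; -1.16 ± 0.47, adjusted p = 0.0418), a call lost without any 1 of 5 of the 6 arrays.

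Ratios of related or partner genes within an array do not depend on the array's scale, and 12 pairs were compared in 2 comparisons (24 exact permutation tests, two-sided; with 3 arrays against 3 the smallest p is 0.1, so none could pass 0.05). At 18 h against control, 7 of 12 ratios did not overlap (exact permutation p = 0.1, adjusted p = 0.141 each). FAA2 over FAA1 differed by 4.07 ± 0.20 (log2, SE), PEX18 over PEX21 by 3.06 ± 0.21, PEX30 over PEX31 by 3.14 ± 0.34 and PEX28 over PEX29 by 2.75 ± 0.13. PEX31 over PEX32 differed by -2.82 ± 0.35 and PEX5 over PEX7 by 0.84 ± 0.22. These changes are several times their errors. PEX18 was at background in control, and with the floor at background its ratio to PEX21 changed by 2.06 ± 0.17. ECI1 over DCI1 gave -0.57 ± 0.28 with DCI1 at background in control, and turned to 0.16 with quantile normalization, 0.72 with a higher floor and 1.19 with an offset of 50.

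At 360 min against dry, 10 of 12 ratios did not overlap (exact permutation p = 0.1, adjusted p = 0.141 each). FAA2 over FAA1 was lower (-0.97 ± 0.38), as were PEX28 over PEX29 (-0.85 ± 0.19) and PEX18 over PEX21 (-0.48 ± 0.14). PEX30 over PEX31 gave -0.93 ± 0.39 and PEX31 over PEX32 gave 0.92 ± 0.30. Both PEX11 and PEX25 stood higher relative to PEX27, by 1.03 ± 0.23 and 0.96 ± 0.31, and PEX11 over PEX25 overlapped (0.06 ± 0.09). PEX5 over PEX7 was higher by 1.03 ± 0.17. PXA1 over PXA2 was higher by 0.35 ± 0.16 and ECI1 over DCI1 by 0.62 ± 0.24, and both turned below 0 with quantile normalization (-0.24 and -0.14).

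**Figure D5:**
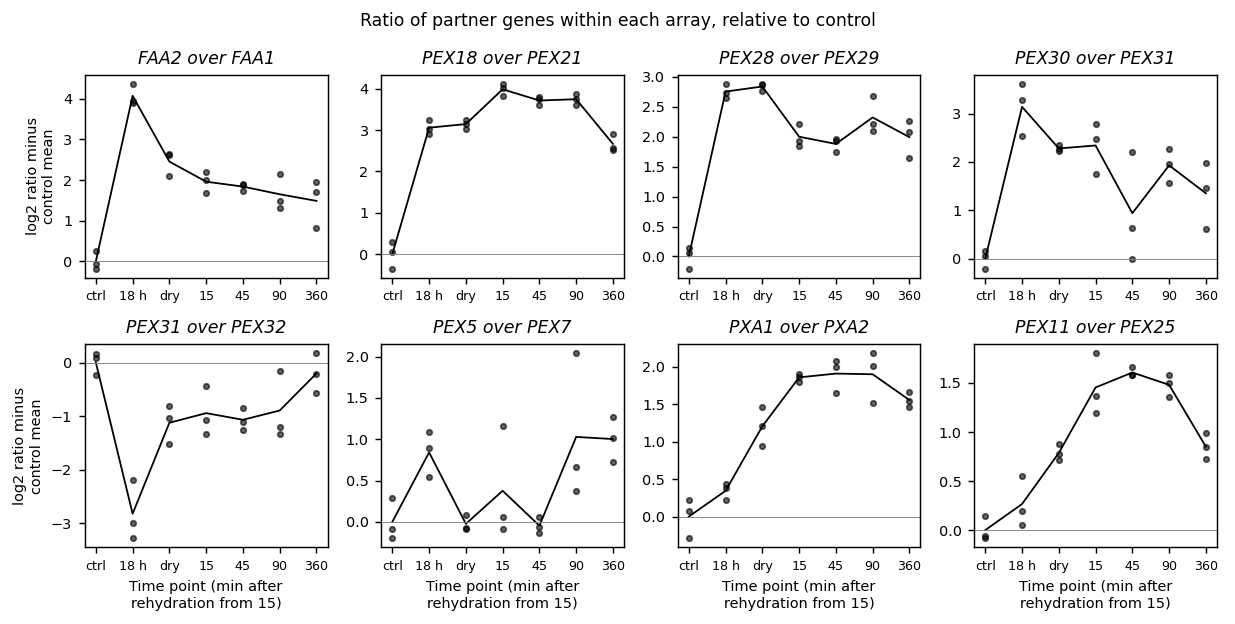
For 8 pairs of related or partner genes, points give the log2 ratio of the first gene's signal to the second's on each array, minus the mean ratio of the 3 control arrays, and lines join the means, over the 7 time points. FAA2 over FAA1 stands 4.07 above control at 18 h and PEX31 over PEX32 stands at -2.82. PXA1 over PXA2 is 0.34 at 18 h, where the arrays overlap control, and higher from dry on, and its change at 360 min against dry turned below 0 with quantile normalization.

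The regulators of these genes were higher at 18 h as well. OAF1, the fatty acid sensing factor, gave 917, 1132 and 955 at 18 h, against 389.7, 402 and 396 in control (1.33 ± 0.10, adjusted p = 4.99e-09). PIP2, its partner, gave 996, 1131 and 1168 at 18 h, against 224, 239.6 and 219 in control (2.27 ± 0.10, adjusted p = 4.34e-12), and was lower in dry cells than at 18 h (-0.95 ± 0.10, adjusted p = 1.33e-06), where OAF1 gave 0.41 (adjusted p = 0.00356). ADR1, the activator of genes repressed by glucose, gave 1481, 1145 and 1631 at 18 h, against 462, 384 and 396 in control (1.77 ± 0.31, adjusted p = 0.000114). At 360 min against dry all 3 were lower, by -1.05 (OAF1), -1.12 (PIP2) and -0.96 (ADR1), and the fall of ADR1 was not called with median centring (-0.43) or quantile normalization (-0.69). PIP2 at 360 min overlapped control (0.20 (adjusted p = 0.0761)), and was called as 0.45 with quantile normalization and as -2.12 with spike-in scaling.

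CTA1, the peroxisomal catalase that removes the peroxide Pox1 makes, gave 6075, 6643 and 6154 at 18 h, against 55.4, 44.4 and 56.5 in control (6.92 ± 0.10, adjusted p = 1.01e-17). At 360 min CTA1 differed from dry by 0.20 (adjusted p = 0.0838). That difference was called as 0.72 with median centring, as -0.69 with quantile normalization and as -1.81 with spike-in scaling. CIT2, the citrate synthase of the glyoxylate cycle, gave 4714, 4279.5 and 4249 at 18 h, against 426, 377 and 442 in control (3.41 ± 0.08, adjusted p = 3.06e-15), and 7438, 7374 and 8151 at 360 min, against 4276, 4458 and 4018 in dry cells (0.85 ± 0.08, adjusted p = 1.09e-07). That rise of CIT2 was -0.10 and not called with quantile normalization and -1.16 with spike-in scaling. CAT2 and CRC1, which pass acetyl units to carnitine and carry them into mitochondria, were higher at 18 h as well, CAT2 by 5.85 (log2) and CRC1 at least 193-fold from a control at background.

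Over 31 other genes of the pathway that were measured, 24 were higher and 4 lower at 18 h against control, with a median log2 change of 1.59, where 36.2% of all probe sets were called higher and 27.3% lower. In dry cells against 18 h, 9 were higher and 8 lower, not far from the 22.1% and 17.1% of all probe sets. At 360 min against dry, 5 were higher and 23 lower (21.2% and 40.7% of all probe sets), and against control 18 were higher and 9 lower (33.7% and 36.4%). With spike-in scaling all 5 (CIT2, LPX1, TGL4, YAT1 and YAT2) were below 0 against dry. With quantile normalization CIT2, LPX1 and TGL4 were too. FAA4 and PCS60, called lower than dry, turned above 0 with median centring. Of those called higher than control, ADR1, ATG36, DNM1, FAA4, FIS1, OAF1 and TGL3 turned below 0 with spike-in scaling. The list holds regulators, carnitine enzymes, lipases and factors of peroxisome division and turnover, and those that were lower at 360 min than in dry cells included ATG36, the receptor for peroxisome turnover (-1.93 ± 0.13, adjusted p = 3.32e-09), SNF1, the kinase that lifts glucose repression (-2.15 ± 0.12, adjusted p = 3.83e-10), PNC1, a nicotinamidase (-1.54 ± 0.08, adjusted p = 1.54e-10), and GPD1, a glycerol phosphate dehydrogenase (-2.11 ± 0.16, adjusted p = 7.66e-09).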

How the data were processed

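Total RNA of 21 samples was hybridized as cRNA to Affymetrix yeast YG_S98 arrays, 1 per sample. The deposited table holds intensities, 1 linear signal per probe set and array, which per the labels came from the GeneChip software, a Wilcoxon signed-rank step and a linear mixed model whose terms the labels do not give. Array totals show that the authors had scaled the table, and it was used as deposited. Run records, per the file headers, gave the 4 scan days.

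Of 9335 probe sets, 60 controls were left out. A single gene was listed for 6504 of the rest, several for 328 and none for 2443, from the platform annotation, and all 6504 matched the RefSeq gene table (assembly R64, names only). Before log2 was taken, deposited intensities below 2.9 (the 5th percentile of those above 0) were raised to 2.9. With limma 3.58.1 (R 4.3.3) and eBayes, all 21 arrays entered 1 model that has a mean for each time point (residual degrees of freedom 14, prior 1.53), with Benjamini-Hochberg adjustment over 9275 probe sets. Values after ± are standard errors of the fit, and each group has 3 arrays. A change is given as log2 of the later over the earlier time point. The background of 29.6 comes from 19 control probe sets (mouse and unspiked bacterial genes), at the 95th percentile of their signals. Where all 3 arrays of a group were at or under it, "at least N-fold" is the brighter mean over that level.

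On simulated arrays of 18 h against control (9275 probe sets, 200 changed), 60% of log2 changes of 1 and 87% of changes of 2 were recovered, with 1 false call. The simulated noise was normal and independent between probe sets. Far fewer probe sets were changed there than were called in the data (36.2% higher and 27.3% lower). These rates therefore check the code and do not give the error rates of the real comparisons. No 2 arrays shared more than 0.9% of their values. Figures and exact tests used Python 3.11.15, scipy 1.17.1 and matplotlib 3.10.9. The 41 genes and the other gene lists were chosen with earlier results of these data known. Any of the 41 genes could be named. Values on every array were set to be given for POX1, FOX2, POT1, PEX11, PEX5, PEX7, PEX3, PEX19, PEX18 and PEX21, and for up to 4 genes per class and comparison with the largest called change and no overlap. Of other pathway genes OAF1, PIP2, ADR1, CTA1 and CIT2 were always named, with up to 4 more per comparison with the smallest adjusted p. Alternatives were other scalings, floors, filters, variance priors, blocks and thresholds, and leaving out each array. For other pathway genes the 3 scalings were added at 360 min after the data were seen.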

Additional observations from a re-analysis of the deposited data

How the results depend on the processing

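At 18 h against control 31 to 37 genes were called higher and 2 or 3 lower over all alternatives, and both class medians kept their sign. Medians below are log2 changes. Quantile normalization moved the enzyme median to -0.37 (dry against 18 h), -0.21 (15 min against dry), -0.12 (90 min against 45 min), -0.21 (360 min against 90 min), -0.44 (360 min against dry) and 4.10 (360 min against control), and the count of genes called higher to 2 (15 min against dry) and 3 (360 min against dry). It also moved the count called lower to 8 (15 min against dry), and the PEX median to -0.27 (15 min against dry), -0.22 (360 min against 90 min), -0.42 (360 min against dry) and 1.09 (360 min against control). The log2 ratio change of ECI1 over DCI1 (18 h against control) was 0.16 there, with its sign turned. The log2 ratio change of PXA1 over PXA2 (360 min against dry) was -0.24 there, with its sign turned. The log2 ratio change of ECI1 over DCI1 (360 min against dry) was -0.14 there, with its sign turned. Signs turned in 360 min against dry for SPS19 (-0.36), PEX6 (0.20) and PEX25 (0.46). In 360 min against control signs turned for TES1 (0.35). Centring each array on its median moved the enzyme median to 4.74 (18 h against control), -0.41 (dry against 18 h), 0.53 (15 min against dry), -0.16 (360 min against 90 min), 0.16 (360 min against dry) and 4.16 (360 min against control), and the PEX median to 1.48 (18 h against control), 0.048 (dry against 18 h), -0.025 (15 min against dry), -0.22 (360 min against 90 min), -0.38 (360 min against dry) and 1.04 (360 min against control). It further moved the count of genes called higher to 12 (15 min against dry), 2 (360 min against 90 min) and 12 (360 min against dry), and the count called lower to 6 (15 min against dry) and 16 (360 min against dry). Signs turned in 15 min against dry for FAA2 (0.036), MDH3 (0.18) and PEX3 (0.36). In 360 min against dry signs turned for PXA1 (0.30), MDH3 (0.088), IDP3 (0.44), PEX14 (0.12), PEX6 (0.30), PEX3 (0.41), PEX11 (0.49) and PEX25 (0.43). Scaling on the spike-ins moved the enzyme median to 4.59 (18 h against control), -0.58 (15 min against dry), -0.50 (90 min against 45 min), -1.23 (360 min against 90 min), -2.37 (360 min against dry) and 1.64 (360 min against control), and the PEX median to 1.34 (18 h against control), -1.13 (15 min against dry), -0.44 (90 min against 45 min), -1.30 (360 min against 90 min), -2.91 (360 min against dry) and -1.48 (360 min against control). The same scaling moved the count of genes called higher to 0 (15 min against dry), 0 (360 min against 90 min), 0 (360 min against dry) and 11 (360 min against control), and the count called lower to 35 (15 min against dry), 2 (90 min against 45 min), 38 (360 min against 90 min), 41 (360 min against dry) and 27 (360 min against control). Signs turned in 15 min against dry for POX1 (-0.023), FOX2 (-0.13), POT1 (-0.12), SPS19 (-0.52), TES1 (-0.50), IDP3 (-0.51), PEX14 (-0.63), PEX2 (-0.45), PEX11 (-0.29) and INP1 (-0.72). In 360 min against 90 min signs turned for PXA2 (-0.90), POX1 (-0.78), FOX2 (-0.65), SPS19 (-0.93), NPY1 (-0.36), PEX2 (-0.70), PEX15 (-0.76), PEX25 (-0.88) and PEX31 (-0.88). In 360 min against dry signs turned for ANT1 (-1.77), POX1 (-0.85), FOX2 (-0.83), SPS19 (-1.49), NPY1 (-1.48) and PEX2 (-1.52). In 360 min against control signs turned for FAA1 (-1.46), MDH3 (-1.24), PEX5 (-1.12), PEX7 (-2.12), PEX21 (-0.84), PEX13 (-1.54), PEX14 (-0.45), PEX2 (-1.77), PEX10 (-1.52), PEX22 (-0.42), PEX6 (-1.46), PEX15 (-0.64), PEX19 (-0.66), PEX11 (-0.72), PEX25 (-1.57), PEX27 (-1.62), PEX29 (-1.50), PEX30 (-1.12), PEX32 (-2.27) and INP2 (-2.18). A floor at the 20th percentile (29.6) moved the enzyme median to 4.73 (18 h against control). The log2 ratio change of ECI1 over DCI1 (18 h against control) was 0.72 there, with its sign turned. Adding 50 before log2, with no floor, moved the enzyme median to 4.01 (18 h against control), -0.12 (90 min against 45 min) and 2.83 (360 min against control), and the PEX median to 1.37 (18 h against control), -0.64 (360 min against dry) and 0.75 (360 min against control). The log2 ratio change of ECI1 over DCI1 (18 h against control) was 1.19 there, with its sign turned. Asking also for a change of at least 2-fold moved the count of genes called higher to 3 (dry against 18 h), 0 (15 min against dry), 0 (360 min against 90 min) and 2 (360 min against dry), and the count called lower to 4 (dry against 18 h), 3 (15 min against dry), 0 (90 min against 45 min), 1 (360 min against 90 min), 17 (360 min against dry) and 2 (360 min against control). Fitting the 2 groups compared alone moved the count of genes called higher to 2 (15 min against dry), and the count called lower to 0 (90 min against 45 min). Scan day as a block moved the count of genes called higher to 2 (360 min against 90 min).

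With 1 array left out at a time, the results that moved beyond their limit had these ranges: the enzyme median in dry against 18 h -0.38 to -0.19, the enzyme median in 15 min against dry 0.027 to 0.21, the count called higher in 15 min against dry 2 to 5, the enzyme median in 45 min against 15 min -0.037 to 0.062, the count called lower in 45 min against 15 min 0 to 1 and the enzyme median in 90 min against 45 min -0.20 to -0.048. The others were the count called higher in 90 min against 45 min 0 to 1, the count called lower in 90 min against 45 min 1 to 2, the count called higher in 360 min against 90 min 1 to 2, the enzyme median in 360 min against dry -0.43 to -0.22 and the PEX median in 360 min against dry -1.02 to -0.85. The causes were not tested.

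With replicate number as a replicate block, 12 genes were called lower in dry cells against 18 h, 4 higher and 15 lower at 15 min against dry, and 14 lower at 360 min against 90 min, and the F test called 41 genes. In a paired sense the numbers mark nothing visible: deviations of same-numbered samples correlated by -0.135 to 0.0942, with 0 pairs over 0.1 in any comparison, so the block was not used. Of 328 changes of single genes, the block ended 3 calls and made 1. With scan day as a block 8 calls of single genes were lost and 7 gained. It could not be fitted for 90 min against 45 min or for 360 min against dry or control, where scan day and time point cannot be told apart, and it was not run for the F test. Leaving out dim probe sets, an intensity trend or no floor ended 1, 1 and 4 calls of single genes and made 1, 1 and 0. Using probe sets without a cross-hybridization suffix could change nothing, since the brightest POX1 probe set has none. The other POX1 probe set without a suffix, 5220_at, had a lower mean signal at 360 min (1491) than in dry cells (2641). The number of arrays limits the precision, and signals at or under 29.6 (DCI1, PEX18 and most PEX4 arrays in control) give bounds. Control arrays of some other genes lay not far above that level, for example PXA2 (31.8 to 38.7), PEX21 (31.0 to 42.7) and PEX28 (33.3 to 47.3). Their changes at 18 h are given without a bound.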
